A study of Mus musculus with 18 samples.

Results

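The insulin-like growth factors Igf1 and Igf2 and the binding proteins Igfbp2 to Igfbp7 were followed in mouse hearts under pressure overload and after Akt had been switched on. Members were all probe sets (groups of short oligonucleotides for 1 transcript) of chips 430A and 430B whose only gene symbol in the platform annotation was one of these 8 genes. The rule found 21 of 45265 probe sets, 19 on chip 430A and 2 on chip 430B, and every gene had at least 1. Igf1 had 4, Igf2 had 2, Igfbp2 had 1, Igfbp3 had 2, Igfbp4 had 6, Igfbp5 had 2, Igfbp6 had 1 and Igfbp7 had 3.

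All 9 hearts came from male mice with 2 transgenes, Tet-myrAkt1 and αMHC-tTA. The first encodes myrAkt1, an activated form of the kinase Akt1, under a Tet-regulated promoter, and the second a Tet transactivator under the αMHC promoter, which is active in heart muscle cells. Each heart has 1 array of each chip, 18 arrays in all, where arrays with the same group and replicate number in their titles were taken as 1 heart. The control group was 3 hearts taken before AAC, the operation used to impose pressure overload, at an age of 8 weeks. The second group was 3 hearts taken 4 weeks after AAC at an age of 12 weeks. The third was 3 hearts taken 6 weeks after AAC with Akt on, for 3 weeks by their titles and for 2 weeks by their descriptions, with a labelled age of 12 weeks. All groups carried both transgenes, and no group in these data had 6 weeks of overload without Akt or had aged without AAC. The effects of Akt, of the further weeks of overload and of age therefore cannot be told apart. The labels do not say whether a sample was 1 animal or a pool, so p-values measure the spread between these samples only.

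Igf1 and Igf2 are small secreted hormones that resemble insulin. Both act through the receptor Igf1r, which signals by way of the docking protein Irs1 to PI3-kinase and then to Akt. The binding proteins hold the hormones in plasma and in the matrix around cells, and by binding and releasing them can limit or prolong their action. In the heart, Igf1 is known for promoting growth and survival of muscle cells.

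Of the 21 probe sets, 17 lay among the 60% with the highest mean log2 signal of their chip and were tested. Igfbp2, 1 of 2 probe sets of Igf2 and 2 of 3 of Igfbp7 lay below this filter. A gene was represented by 1 probe set, the brightest on chip 430A, or the brightest on chip 430B where none on 430A passed the filter. This left 7 of the 8 genes among the 12834 genes tested. Differences are given on the scale of log2(signal + 32), which understates the change of dim probe sets. Adjusted p-values come from limma with Benjamini-Hochberg adjustment over all genes tested, and rose, fell and passed refer to an adjusted p under 0.05.

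The deposited intensities had been scaled to a common level within each chip, and replicate arrays correlated with r between 0.897 and 0.978. As a check of the labels, 1 of 3 probe sets of Akt1 past the filter, 1425711_a_at, rose with Akt on. Whether it reads the transgene or the mouse's own Akt1 was not analysed here. The signal of 1425711_a_at was 708, 383 and 496 before AAC, 571, 821 and 917 at 4 weeks, and 2614, 3762 and 6535 with Akt on. The hearts with Akt on lay above all others, by 5.13-fold over 4 weeks (log2 difference 2.36, SE 0.30, adjusted p = 0.0026). The probe set that represents Akt1, 1416657_at, did not rise (0.0076 against 4 weeks, adjusted p = 0.987), nor did the third, 1440950_at. The labelled tissue was borne out by its markers: all 8 cardiomyocyte markers had signal ranks between 97.5% and 100% of their chip. Transcripts of atrial muscle divided the hearts within each group. Before AAC, the summed signal of 5 atrial markers was 4697 in replicate 1 and 91517 and 49673 in replicates 2 and 3. At 4 weeks it was 69484 in replicate 1 and 5606 and 8914 in the others, and with Akt on it was 68739 in replicate 1, 6181 in replicate 2 and 14949 in replicate 3. The 4 hearts with the highest atrial score (the mean log2 signal of these markers) are before AAC replicates 2 and 3, 4 weeks replicate 1 and Akt on replicate 1, and results are also given without them.

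At 4 weeks after AAC none of the 7 tested members differed from before AAC in limma, against 5.11% of all genes tested, and none had an unadjusted p under 0.05. With Akt on, Igfbp5 and Igfbp7 rose over the 4-week level, 2 of 7 members against 1.78% of all genes called higher. Against the hearts before AAC, Igf1 and Igfbp5 were higher with Akt on, 2 of 7 against 7.25% of all genes called higher. No tested member fell in any comparison. The hearts of the groups compared did not overlap for 1 of 7 members at 4 weeks, 2 for Akt on against 4 weeks and 2 for Akt on against before AAC, against 30.9%, 23.2% and 33.4% of all genes tested. The median difference of the 7 members was -0.20 at 4 weeks, 0.38 for Akt on against 4 weeks and -0.12 for Akt on against before AAC. Over all genes tested these medians were -0.038, 0.032 and -0.0035. Both comparisons with Akt on share the same 3 hearts, so they are not independent of each other.

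**Figure D1:**
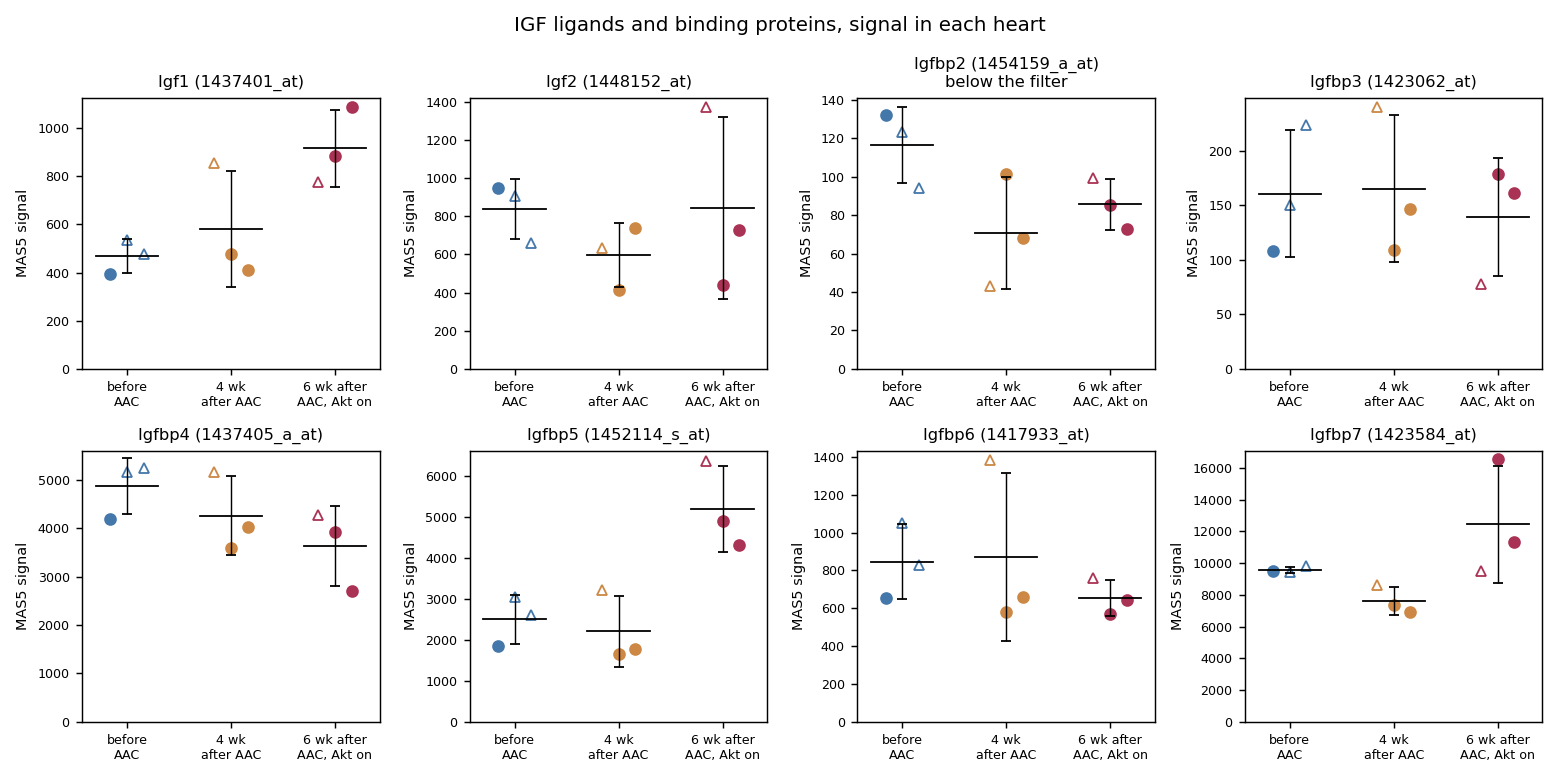
Signal (MAS5, linear scale from 0) of the 8 genes in each heart, with 1 probe set per gene. Points are hearts, bars the mean of 3 with its SD, and hollow triangles the 4 hearts with the highest atrial score. The 3 hearts with Akt on sit above every other heart for Igfbp5, and above the hearts before AAC for Igf1, whereas Igfbp2, Igfbp3, Igfbp4 and Igfbp6 overlap between groups with Akt on and off.

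The promoters of the pair that rose over the level before AAC, Igf1 and Igfbp5, are shown to set their sequences side by side. Each is the 250 bases before the start of the gene, 5′ to 3′ on the strand of the gene, from RefSeq (GRCm38.p6). That of Igf1 lies at chr10:87860861-87861110 on the plus strand and that of Igfbp5 at chr1:72874866-72875115 on the minus strand. Capitals mark TATTTAA, an A/T-rich variant of the TATA box.
Igf1: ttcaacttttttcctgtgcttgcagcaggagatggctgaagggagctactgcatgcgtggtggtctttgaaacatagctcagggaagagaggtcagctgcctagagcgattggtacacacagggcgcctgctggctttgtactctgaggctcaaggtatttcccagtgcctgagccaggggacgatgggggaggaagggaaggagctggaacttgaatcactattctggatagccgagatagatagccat
Igfbp5: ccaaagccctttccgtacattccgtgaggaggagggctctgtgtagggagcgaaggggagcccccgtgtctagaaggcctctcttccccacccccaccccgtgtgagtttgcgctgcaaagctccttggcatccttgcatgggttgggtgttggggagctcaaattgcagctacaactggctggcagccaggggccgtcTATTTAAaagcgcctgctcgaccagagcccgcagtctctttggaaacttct
The 7-letter run in Igfbp5 began 51 bases before the start. It was searched for, on both strands, after this sequence had been seen, and 4.18% of 32851 promoters of the same length hold it. The letters TATAAA of the TATA box, searched on both strands, were found in the promoters of Igfbp4, from 28 bases before the start, and Igfbp6, from 148 bases before it. This is 2 of the 12 promoters listed for the 8 genes, against 12.4% of all promoters. Whether either match acts as a TATA box was not tested. The core of the FoxO binding motif, GTAAACA, was in 0 of the 12 on either strand and in 3.17% of all. The Igf1 window held none of these 3 motifs, which says only that these letters are not in these 250 bases. Igfbp2, whose promoters lie on the plus strand of chromosome 1 at 72824230-72824479 and 72825137-72825386, is a neighbour of Igfbp5 on the opposite strand.

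Igf1, the ligand through which growth hormone drives much of body growth, was higher with Akt on than before AAC. In the probe set that represents the gene, 1437401_at, the signal was 396, 535 and 476 before AAC, 856, 477 and 409 at 4 weeks, and 774, 884 and 1088 with Akt on. Every heart with Akt on lay above every heart before AAC, while 4-week replicate 1 reached into the range of the hearts with Akt on. The mean was 469 ± 70.1 before AAC, 580.3 ± 241 at 4 weeks and 916 ± 159 with Akt on (SD, n = 3 each). Igf1 rose 1.89-fold over the level before AAC (log2 difference 0.92, SE 0.23, 95% interval 0.41 to 1.42, adjusted p = 0.0215). Against 4 weeks the difference of 0.69 did not pass (adjusted p = 0.123), and the order of the 4-week and control hearts was within their spread (difference 0.23, adjusted p = 0.600). Because these are bulk samples, a change in the number of Igf1-expressing cells and a change of RNA per cell cannot be told apart, here and for every gene below. The adjusted p of the rise over the level before AAC was 0.0806, 0.0645, 0.0531 and 0.0824 without before AAC replicate 1, before AAC replicate 3, Akt on replicate 2 and Akt on replicate 3. Without 4-week replicate 1, the difference between Akt on and 4 weeks was 0.99 (adjusted p = 0.0164).

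The other Igf1 probe sets divided into a pair that moved the same way and 1 that did not. Probe set 1434413_at on chip 430B gave 501, 775 and 676 before AAC, 759.9, 564 and 495 at 4 weeks, and 1101, 1320.3 and 954 with Akt on. Here the hearts with Akt on stood above both other groups, 1.82-fold over 4 weeks (log2 difference 0.87, SE 0.20, adjusted p = 0.0361) and 1.71-fold over the level before AAC (adjusted p = 0.0216), in the test over all 21855 probe sets past the filter with a single symbol. In that test 0, 3 and 5 of the 17 probe sets of the family passed at 4 weeks, between Akt on and 4 weeks and between Akt on and before AAC, against 5.6%, 3.26% and 15% of all probe sets. All of these were higher with Akt on, as were 1.37% and 8.18% of all probe sets in the last pair of comparisons. The groups did not overlap for 4, 5 and 5 of the 17, against 30.4%, 22% and 33.3% of all probe sets. The rise over 4 weeks did not pass without before AAC replicate 3, 4 weeks replicate 2 or 3, or Akt on replicate 1 or 2, with adjusted p of 0.0590, 0.102, 0.131, 0.0645 and 0.114. The rise over before AAC did not pass without before AAC replicate 1 or 3 or Akt on replicate 2 (0.0822, 0.0578 and 0.0811). Probe set 1452014_a_at gave 243, 285 and 281 before AAC, 287, 264 and 312 at 4 weeks, and 439.5, 457 and 375 with Akt on. It did not overlap either group and rose over the level before AAC (log2 difference 0.59, SE 0.15, adjusted p = 0.0201), while 0.51 against 4 weeks did not pass (adjusted p = 0.0875). Its rise was lost without the same 3 hearts (adjusted p = 0.0688, 0.0568 and 0.0659).

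Probe set 1419519_at, also assigned to Igf1 alone, did not pass in any comparison. Its signal was 369, 377 and 324 before AAC, 219, 307 and 314 at 4 weeks, and 355, 282 and 223 with Akt on. All 4-week hearts lay below the hearts before AAC (difference -0.33, adjusted p = 0.326), and those with Akt on overlapped both groups (-0.30 against before AAC, 95% interval -0.72 to 0.11). The level of 1437401_at over 1419519_at within a heart was 0.36 ± 0.23 before AAC and 1.58 ± 0.54 with Akt on, in log2 units (SD, n = 3). That change of 1.22 gave an exact two-sided permutation p of 0.1, the smallest that 3 hearts against 3 allow, and 0.3 after Benjamini-Hochberg adjustment over 6 such tests. For 1452014_a_at over 1419519_at the change was 0.90, with the same p-values. This pair of tests was added after the values had been seen. Of the Igf1 probe sets, 1419519_at had the lowest difference between Akt on and before AAC, the comparison tested. Setting other probe sets against the lowest favours a large change, so these p-values cannot decide whether the Igf1 probe sets differ. Where on the Igf1 transcript each probe set lies was not analysed here.

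**Figure D2:**
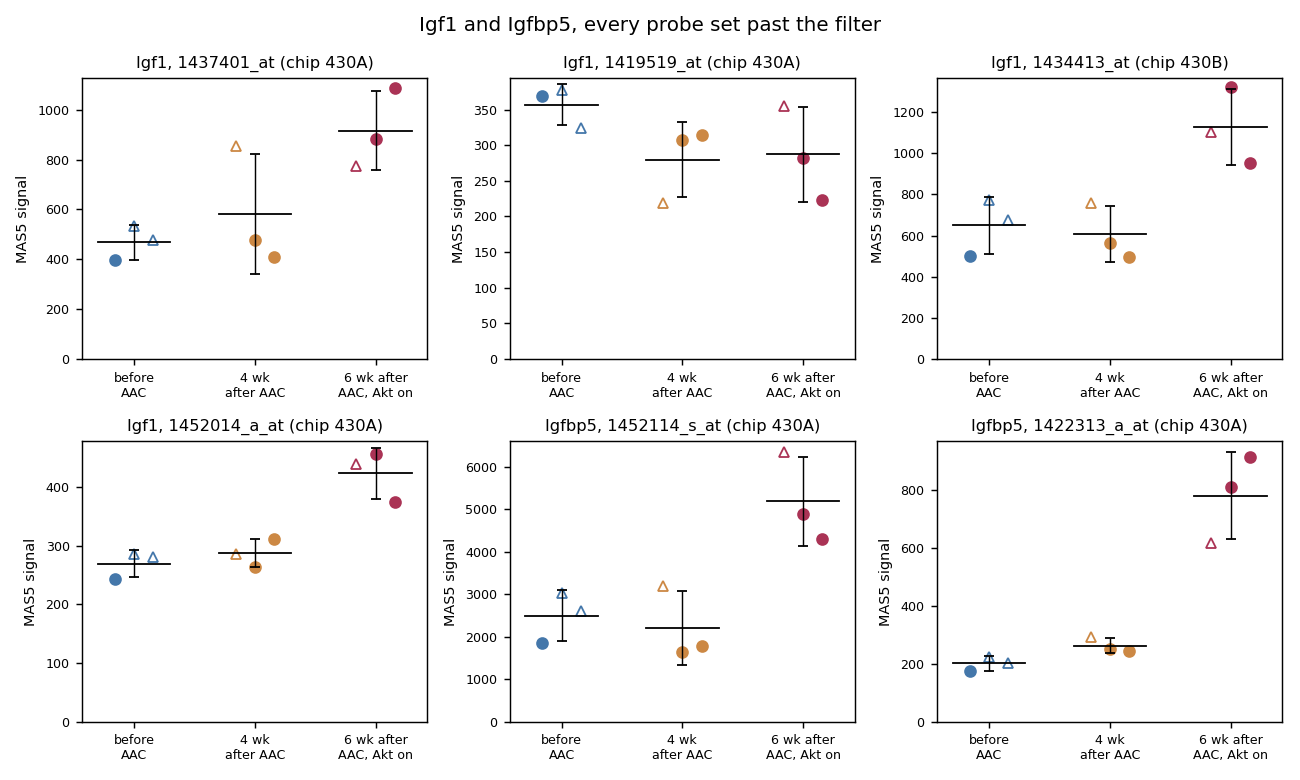
Signal (MAS5, linear scale from 0) in each heart for the 4 probe sets of Igf1 and the 2 of Igfbp5, symbols as in the plot of the 8 genes. In 5 of the 6 panels the hearts with Akt on lie above all hearts before AAC, and 1419519_at is the exception.

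Igf2, the fetal growth ligand, is imprinted and in adult mice is low in most tissues. Its tested probe set, 1448152_at, gave 950.4, 906 and 661 before AAC, 634, 412 and 741 at 4 weeks, and 1371, 439 and 726 with Akt on. The groups overlapped, and the hearts with Akt on included both the highest and the second lowest of the 9. Differences of -0.49 at 4 weeks, 0.38 between Akt on and 4 weeks and -0.12 between Akt on and before AAC did not pass (adjusted p = 0.391, 0.578 and 0.853). The SE was 0.33, so that the last difference had a 95% interval from -0.83 to 0.59. The other probe set, 1415931_at, lay below the filter with signals from 24.1 to 122 and overlapping groups.

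Igfbp5, the most conserved of the binding proteins, is secreted and held in the extracellular matrix, and had the largest rise of the 7 tested members in both comparisons with Akt on. The tested probe set, 1452114_s_at, gave 1852, 3039 and 2601 before AAC, 3205, 1642 and 1777 at 4 weeks, and 6358, 4896 and 4311 with Akt on. Every heart with Akt on was above all 6 others, and the groups without Akt overlapped. The mean was 2497 ± 600.1 before AAC, 2208 ± 866 at 4 weeks and 5188 ± 1055 with Akt on (SD, n = 3 each). Igfbp5 rose 2.41-fold over 4 weeks (log2 difference 1.27, SE 0.25, 95% interval 0.73 to 1.81, adjusted p = 0.0164) and 2.08-fold over the level before AAC (difference 1.06, adjusted p = 0.0146). At 4 weeks the difference was -0.21 (adjusted p = 0.657).

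The second Igfbp5 probe set, 1422313_a_at, moved further. It gave 176, 225 and 203 before AAC, 292, 253 and 243 at 4 weeks, and 617, 809 and 915 with Akt on. The 3 groups did not overlap at all, in the order before AAC, 4 weeks, Akt on, although the step from before AAC to 4 weeks (0.34, adjusted p = 0.266) did not pass. Groups with no overlap and a higher 4-week level were seen for 14.7% of probe sets in that comparison. With Akt on it rose 2.73-fold over 4 weeks (log2 difference 1.45, SE 0.17, adjusted p = 0.0016) and 3.45-fold over the level before AAC (difference 1.79, adjusted p = 2.19e-04). These rises passed in each of the 9 fits that left out 1 heart. In the brighter probe set the rise over 4 weeks had an adjusted p of 0.0564 without 4 weeks replicate 2 and 0.0665 without 4 weeks replicate 3, and the rise over before AAC had 0.0609 without before AAC replicate 1. The suffix _s_at marks a probe set that may bind transcripts of more than 1 gene, and _a_at a set shared by alternative transcripts of a gene.

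Igfbp7, a secreted protein of blood vessel walls that binds IGFs weakly, was lowest at 4 weeks and highest with Akt on. Probe set 1423584_at gave 9477, 9439 and 9789.8 before AAC, 8605, 7365 and 6913 at 4 weeks, and 9477, 16587 and 11315 with Akt on. The 4-week hearts lay below all others, and the hearts with Akt on reached from the level before AAC to well above it. The rise over 4 weeks was 1.59-fold (log2 difference 0.67, SE 0.17, 95% interval 0.30 to 1.04, adjusted p = 0.0451). The dip at 4 weeks (-0.33, adjusted p = 0.264) and the difference between Akt on and before AAC (0.34, adjusted p = 0.207) did not pass. Groups that did not overlap with the 4-week hearts lower made up 17.8% of all genes in the comparison with before AAC. The call on the rise is close to the threshold: over all probe sets past the filter the adjusted p was 0.0557, and in the 7 of 9 fits without 1 heart in which it was lost it ran from 0.0676 to 0.144. It held without 4 weeks replicate 1 and without Akt on replicate 1, and each of the other hearts ended it when left out.

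Both other Igfbp7 probe sets lay below the filter. Probe set 1423585_at gave 78.1, 46.5 and 63.1 before AAC, 109, 81.2 and 66.3 at 4 weeks, and 137, 159 and 98.7 with Akt on. The hearts with Akt on were above those before AAC, and the difference of 0.79 did not pass without a filter (adjusted p = 0.0733). Probe set 1437804_at gave 55.8, 57.3 and 51.2 before AAC, 38.8, 30.6 and 24.6 at 4 weeks, and 54.9, 37.9 and 38.7 with Akt on. Like the bright probe set it was lower in each 4-week heart than in each heart before AAC (-0.46, adjusted p = 0.211).

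Igfbp4, which blocks IGF action until the protease Pappa cleaves it, has the most probe sets of the family, and none of the 6 passed in any comparison. The tested one, 1437405_a_at, gave 4204, 5175 and 5259.7 before AAC, 5174, 3602 and 4024 at 4 weeks, and 4273, 3928 and 2703 with Akt on. With Akt on 2 of 3 hearts were below the control range, and the difference from before AAC was -0.44 (SE 0.18, 95% interval -0.84 to -0.05, adjusted p = 0.126). The dimmer 1437406_x_at gave -0.54 in that comparison (adjusted p = 0.0877), from 2687, 4303 and 4047 before AAC to 2684, 3015 and 1861 with Akt on. Its suffix marks probes that can bind other transcripts. In the remaining 4 probe sets the same difference ran from -0.36 (1423756_s_at) over -0.16 (1423757_x_at) and 0.025 (1421992_a_at) to 0.24 (1421991_a_at). At 4 weeks the 6 probe sets differed from before AAC by between -0.27 and 0.041, with adjusted p of 0.532 or more.

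Igfbp3, the main carrier of IGFs in plasma, had a probe set on each chip, and neither passed. Probe set 1423062_at gave 108, 150.0 and 224 before AAC, 240.3, 109 and 147 at 4 weeks, and 77.9, 179 and 161 with Akt on, a spread within groups as wide as that between them. Probe set 1458268_s_at on chip 430B gave 462, 426 and 372 before AAC, 338, 304 and 349.6 at 4 weeks, and 309.7, 406 and 378 with Akt on. There each 4-week heart lay below each heart before AAC (-0.32, adjusted p = 0.236), and the hearts with Akt on overlapped both. Groups apart with the 4-week hearts lower made up 15.7% of all probe sets in this comparison.

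Igfbp6, which prefers Igf2 to Igf1, gave 655, 1051 and 831 before AAC, 1385, 578 and 658 at 4 weeks, and 758, 569 and 641 with Akt on. The highest value was that of 4-week replicate 1, and no difference passed (-0.036, -0.30 and -0.34, adjusted p = 0.957, 0.601 and 0.458). Igfbp2, another plasma carrier, was measured only below the filter, at 132, 123 and 94.1 before AAC, 43.3, 101 and 67.9 at 4 weeks, and 99.2, 85.2 and 72.6 with Akt on. In the fit without a filter its differences of -0.56 at 4 weeks, 0.23 between Akt on and 4 weeks and -0.33 between Akt on and before AAC did not pass (adjusted p = 0.259, 0.722 and 0.483).

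**Figure D3:**
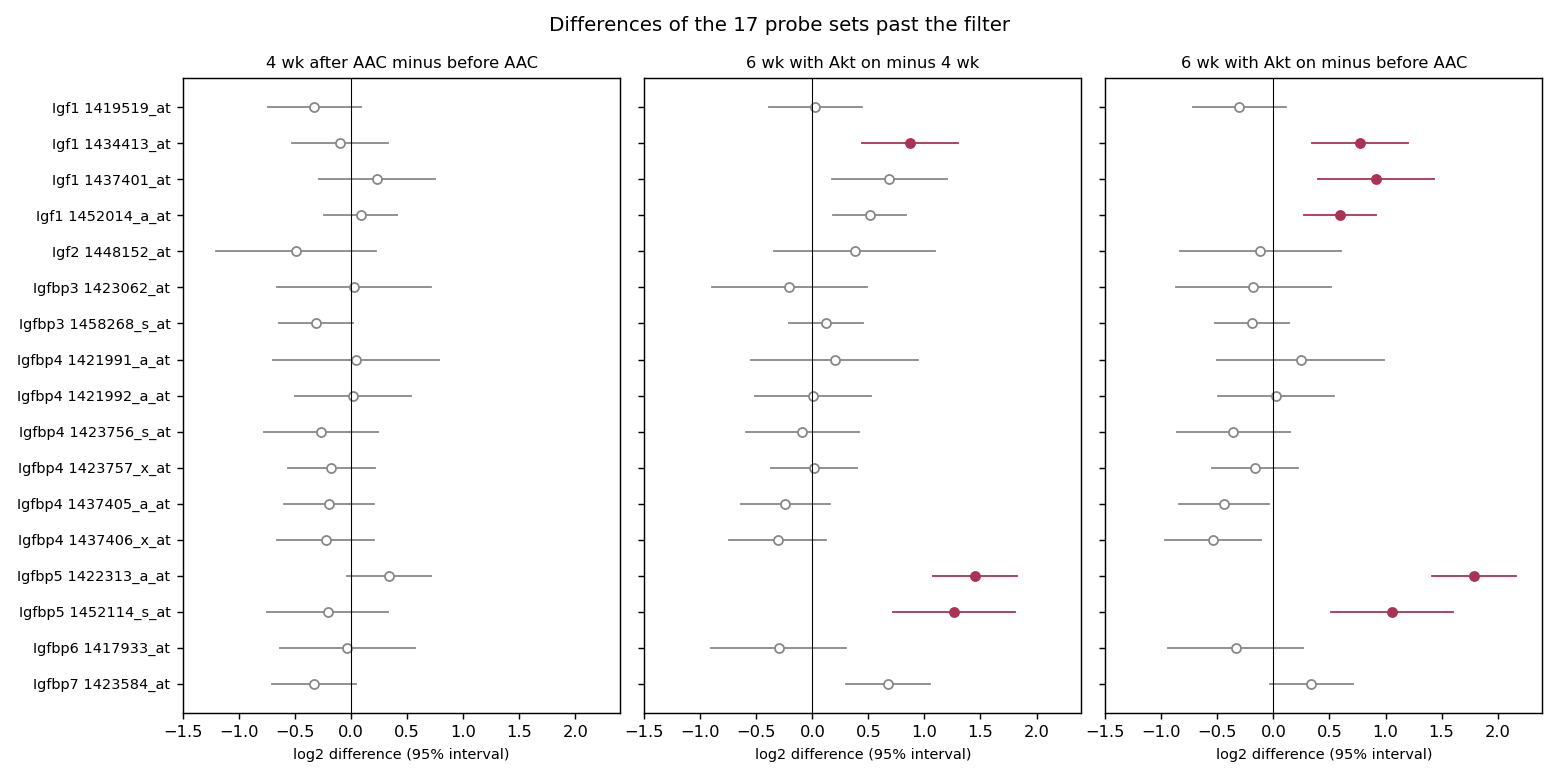
Differences of group means on the log2(signal + 32) scale with 95% intervals, for the 17 probe sets past the filter in the 3 comparisons. Filled red points passed at an adjusted p under 0.05 over all probe sets: 0 at 4 weeks, 3 for Akt on against 4 weeks and 5 for Akt on against before AAC, of Igf1 and Igfbp5.

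Members were also set against the atrial score within each group. In all 3 groups, 7 of the 17 probe sets past the filter were higher in the high-score hearts than in the others, and 0 were lower in all 3, against 16.2% and 14.2% of all 21855 probe sets. The 7 belong to 3 genes: 5 of the 6 of Igfbp4, which share a gene, Igfbp6, and Igfbp5 1452114_s_at. For Igfbp6 the high-score hearts were higher by 0.49, 1.13 and 0.31 (log2) before AAC, at 4 weeks and with Akt on. For Igfbp5 1452114_s_at these differences were 0.59, 0.90 and 0.47, and for 1422313_a_at they were 0.24, 0.21 and -0.46. Among the 5 hearts with fewer atrial transcripts, Igfbp5 1452114_s_at was 1852 before AAC, 1642 and 1777 at 4 weeks, and 4896 and 4311 with Akt on. The rise was as large without the 4 high-score hearts, at 1.41 over 4 weeks (adjusted p = 0.0168) and 1.30 over before AAC (adjusted p = 0.0358), where the lone control heart is assumed to vary like the other groups. With the score as a covariate it was 1.19 and 1.17 (adjusted p = 0.0025 and 9.40e-04).

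Igf1 in 1437401_at was higher in the high-score hearts before AAC and at 4 weeks (0.33 and 0.91) and lower with Akt on (-0.33). Without the 4 hearts the difference of Igf1 between Akt on and before AAC was 1.24 (adjusted p = 0.0522), and with the score as covariate 0.98 (adjusted p = 0.0092). For Igfbp7 the difference between Akt on and 4 weeks was 0.94 without them (adjusted p = 0.0797) and 0.69 with the covariate (adjusted p = 0.0382). Without these 4 hearts the number of all genes called fell to 86 from 553 for Akt on against 4 weeks, and to 165 from 1930 for Akt on against before AAC.

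Markers of other cell types of the heart also differed between the groups. Among 9 fibroblast markers, with signal ranks from 74.0% to 99.7% of their chip, Col1a1, Col1a2, Col3a1 and Postn rose with Akt on over 4 weeks and 5 did not pass. Against before AAC the last 3 of these 4 rose, and the median differences were 0.22 and 0.49. Of all genes tested, 1.78% were called higher over 4 weeks and 7.25% over before AAC. Differences were above 0 for 7 of the 9 markers over 4 weeks and for 6 over before AAC. Postn, a matrix protein of activated fibroblasts, was 655, 1103 and 839 before AAC, 2207, 1216 and 723 at 4 weeks, and 5735, 9299 and 4954 with Akt on. Dcn, with the highest signal rank of the 9, went the other way and did not pass. It was 20171, 21016.5 and 19378 before AAC, 19135, 14988 and 14778 at 4 weeks, and 16658, 17421 and 13058 with Akt on. There every heart with Akt on lay below every heart before AAC. Summed over the 9 markers, the lowest and highest signals were 37797 and 43800.4 in the control hearts, 28577.5 and 46301 in the 4-week hearts, and 42518 and 66322.5 in the hearts with Akt on, so that the groups overlapped. Among 10 endothelial markers none passed between Akt on and 4 weeks in limma (5 with an unadjusted p under 0.05, median -0.29), and 6 fell below the level before AAC. Their summed signal was 17142 to 17755 before AAC, 12034.5 to 13202 at 4 weeks and 10197 to 11180.4 with Akt on. Among 10 smooth muscle and pericyte markers, Cnn1 rose and Abcc9 and Kcnj8 fell between Akt on and 4 weeks (median -0.27), and 5 fell below the level before AAC (median -0.64). Their summed signal was 20303 to 22499 before AAC, 15529 to 19298 at 4 weeks and 12116 to 14355 with Akt on, without overlap. Of all genes tested, 4.31% passed between Akt on and 4 weeks and 15% between Akt on and before AAC, in either direction. Against before AAC, 2 of 8 cardiomyocyte markers fell at 4 weeks (5.11% of all genes passed) and 2 with Akt on, and none passed between Akt on and 4 weeks. Their summed signal was 185694 to 206821 before AAC, 153058 to 161308 at 4 weeks and 146741 to 178741 with Akt on. Of 10 macrophage markers, 9 were tested and none passed. Their sums overlapped, at 11200.5 to 12015, 8166 to 11379 and 9128 to 13422. The part of any of these cell types in the levels of Igf1, Igfbp5 and Igfbp7 was not tested.

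A ratio used as a sign of RNA quality also differed between groups. The signal of the 3′ over that of the 5′ β-actin control on chip 430A was 1.49 to 2.04 before AAC, 1.14 to 1.21 at 4 weeks and 1.04 to 1.22 with Akt on. Exact two-sided permutation p-values were 0.1, the smallest possible, for the control hearts against either other group, and 0.4 between Akt on and 4 weeks. For Gapdh on the same chip they were 0.1, 0.1 and 1. On chip 430B the β-actin ratio was 1.45 to 1.86 before AAC, 1.16 to 1.51 at 4 weeks and 1.11 to 1.26 with Akt on. The same tests gave 0.2 for 4 weeks and 0.1 for Akt on against before AAC, and 0.3 between Akt on and 4 weeks. For Gapdh on chip 430B they gave 0.1, 0.1 and 0.5. The ratio thus moved in the comparisons with before AAC, except that β-actin on chip 430B overlapped at 4 weeks. Its part in the differences from before AAC, those of the Igf1 probe sets among them, was not tested.

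The other genes of the pathway were taken from a list of 33 receptors, docking proteins, proteases and regulators, 26 of which were tested. The others were not tested, because their probe sets with a single symbol lay below the filter or because they had none. At 4 weeks 1 gene rose and 2 fell, against 5.11% of all genes called in either direction. With Akt on 2 rose and 1 fell relative to 4 weeks (4.31% of all genes) and 4 rose and 3 fell relative to before AAC (15%). The median differences of the 26 were -0.073, -0.070 and -0.15.

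Irs1, the docking protein between the IGF1 and insulin receptors and PI3-kinase, had the largest change of the list in both comparisons with Akt on. Its signal was 1825, 1301 and 1479 before AAC, 1502, 1426 and 1349 at 4 weeks, and 660.2, 633 and 525 with Akt on. The hearts with Akt on were below the 6 others without overlap. Irs1 was 2.29-fold lower than at 4 weeks (log2 difference -1.20, SE 0.15, adjusted p = 0.0018) and 2.44-fold lower than before AAC (-1.29, adjusted p = 5.23e-04). Both falls passed without the 4 high-score hearts and in each of the 9 fits without 1 heart.

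The receptors gave no uniform pattern. Igf1r (1426565_at), the receptor for both ligands, was 245, 255 and 225 before AAC, 285, 164 and 203 at 4 weeks, and 237, 159.9 and 159 with Akt on, and no difference passed in it or in its 3 other probe sets. Igf2r (1424112_at), which removes Igf2 from the cell surface, was 2959, 1802 and 2093 before AAC, 1581, 2144 and 2213 at 4 weeks, and 2449, 2136 and 2382 with Akt on. No difference passed in this probe set. The second, 1424111_at, was 1135, 1131 and 1051 before AAC, 894, 1225 and 1295 at 4 weeks, and 1426, 1278 and 1371 with Akt on. There each heart with Akt on lay above each heart before AAC. Groups did not overlap for 33.3% of all probe sets in that comparison. Insr, the insulin receptor, did not pass in the probe set that represents it (1450225_at, -0.049 between Akt on and 4 weeks, adjusted p = 0.916). Its probe set on chip 430B, 1434446_at, gave 1468, 2059.6 and 1789.8 before AAC, 1516, 1437 and 1437 at 4 weeks, and 1034, 682 and 984 with Akt on. The 3 hearts with Akt on were the lowest of the 9, by -0.70 against 4 weeks (adjusted p = 0.0479) and -0.96 against before AAC (adjusted p = 0.0044), over all probe sets.

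Among the adaptors, Grb10, which dampens insulin and IGF1 receptor signalling, was 1743, 1701 and 1811 before AAC, 1599.9, 1668 and 1971 at 4 weeks, and 2179.6, 3408 and 3474 with Akt on in 1425458_a_at. It rose 1.69-fold over 4 weeks (log2 difference 0.75, SE 0.17, adjusted p = 0.0283) and 1.68-fold over before AAC (adjusted p = 0.0128). The rise over 4 weeks was lost when any 1 of the 4-week hearts or Akt on replicate 2 or 3 was left out (adjusted p from 0.0515 to 0.0907), and that over before AAC without Akt on replicate 3 (0.0530). Another Grb10 probe set, 1430164_a_at, fell at 4 weeks by 0.80 (adjusted p = 0.0283), while the tested one differed by -0.0099 there. The signal of 1430164_a_at was 275, 231 and 184 before AAC, 109, 122 and 120 at 4 weeks, and 174, 197 and 198 with Akt on. With Akt on it lay above 4 weeks but overlapped the hearts before AAC. Probe set 1425457_a_at overlapped throughout, at 115, 117 and 78.9 before AAC, 90.2, 158 and 109 at 4 weeks, and 83.3, 330 and 276 with Akt on. Grb2, which links receptors to Ras, rose 2.30-fold over before AAC in 1449111_a_at (735, 801 and 723 before AAC and 1539, 1895 and 1898 with Akt on, adjusted p = 0.0038), and its second probe set did not pass (0.13, adjusted p = 0.838). Shc1, another adaptor to Ras, rose 1.51-fold over 4 weeks (adjusted p = 0.0476), a call kept only without 4 weeks replicate 1 or Akt on replicate 3 among the 9 fits without 1 heart (adjusted p of the others 0.0670 to 0.141).

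Of the proteases and their regulators on the list, Adam9, Adam12, Htra3 and Stc1 passed in a comparison with before AAC. In the probe set that represents each gene, Htra1, Mmp2, Mmp9, Pappa, Pappa2 and Stc2 passed in none. A second Htra1 probe set, 1438251_x_at, was 1172, 1336 and 1267 before AAC, 1201, 671 and 778 at 4 weeks, and 864, 422 and 504 with Akt on. There each heart with Akt on lay below each heart before AAC. In the tested 1416749_at these groups overlapped (-0.19, adjusted p = 0.590), so that the reading for Htra1 depends on the probe set. Groups did not overlap for 33.3% of all probe sets in that comparison. Adam9, a membrane protease reported to cut Igfbp5, rose 2.11-fold at 4 weeks (372, 393 and 386 before AAC and 1088, 826 and 669.9 at 4 weeks, adjusted p = 0.0123) and was 1.99-fold over the control level with Akt on (adjusted p = 0.0031). The former had an adjusted p of 0.0544 without before AAC replicate 3. Htra3, a secreted serine protease, fell at both stages, by 0.77 at 4 weeks (adjusted p = 0.0229) and by 1.20 with Akt on (adjusted p = 8.99e-04). The fall at 4 weeks was lost when any 1 heart before AAC or 4 weeks replicate 2 was left out (adjusted p from 0.0686 to 0.0829). These values are of 1419292_at. Probe set 1431762_at also fell at 4 weeks (-0.78, adjusted p = 0.0247) but with Akt on its difference from before AAC, -0.42, did not pass (adjusted p = 0.115), and 1427029_at did not pass (0.15 and -0.038, adjusted p = 0.736 and 0.930). The signal of 1419292_at was 3058, 2905 and 3287 before AAC, 2107, 1533 and 1788 at 4 weeks, and 1629.8, 1167 and 1222 with Akt on. Adam12, a protease that cuts Igfbp3 and Igfbp5, fell by 0.71 at 4 weeks (adjusted p = 0.0480), and passed only without Akt on replicate 1 or 3 among the 9 fits without 1 heart (others 0.0551 to 0.155). Stc1, an inhibitor of Pappa, rose 1.57-fold over before AAC with Akt on (adjusted p = 0.0473). Ghr, the growth hormone receptor, fell by 0.49 in 1417962_s_at (adjusted p = 0.0369), while 1451871_a_at of the same gene rose by 1.02 (adjusted p = 0.0163), so that the direction for Ghr depends on the probe set. A further Ghr probe set, 1451501_a_at, was 673, 673 and 652 before AAC and 805, 859 and 883 with Akt on. Its hearts with Akt on were thus also higher than those before AAC, without overlap. The call for Stc1 was kept only without 4 weeks replicate 1 or 2 (others 0.0550 to 0.149), and that for Ghr was lost without before AAC replicate 2 or 3 or any 1 heart with Akt on (0.0518 to 0.138). Without the 4 high-score hearts, the fall of Htra3 between Akt on and before AAC passed (-1.33, adjusted p = 0.0358). Apart from those of Irs1, the other calls of the pathway genes did not: Adam9 had 0.256 at 4 weeks and 0.0610 with Akt on, Htra3 0.246 at 4 weeks, and Adam12 0.299. Grb10 had 0.0579 over 4 weeks and 0.0610 over before AAC, Grb2 0.114, Shc1 0.175, Stc1 0.221 and Ghr 0.482.

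**Figure D4:**
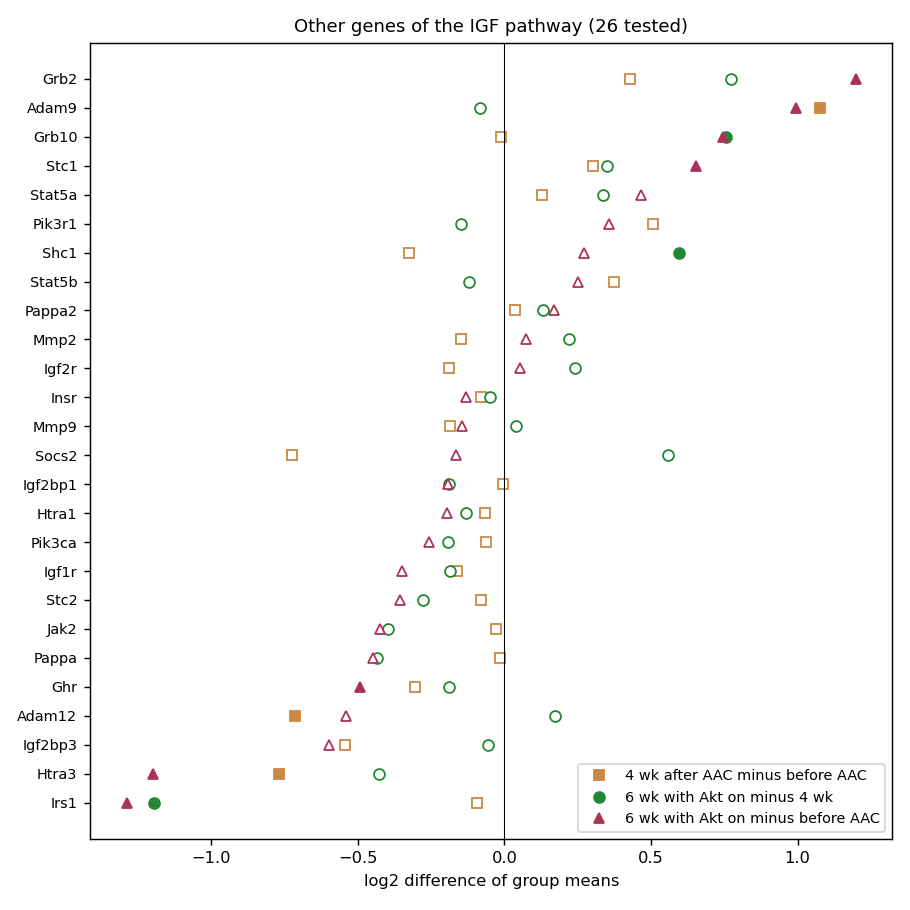
Differences of group means (log2 units) for the 26 tested genes of the pathway list, ordered by Akt on minus before AAC, with 1 symbol shape and colour per comparison. Filled symbols passed at an adjusted p under 0.05 over all genes: Irs1 lies lowest with Akt on, and Grb2 and Adam9 highest over before AAC.

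The genes whose log2 signals followed each member most closely over the 9 hearts were sought among 8142 genes of chip 430A with a symbol that is not a clone, Gm or Rik name. These correlations describe hearts that share groups and atrial content, and the 2 highest of 8142 are given for each member, so no test is given. For Igfbp5 they were Dap (Pearson r = 0.979) and Tbca (r = 0.966), for Igf1 Phkg1 (r = 0.958) and Ninj1 (r = 0.955), and for Igfbp7 Dio2 (r = 0.955) and Ptpn1 (r = 0.934). Igfbp6 ran with Nudt16 (r = 0.987) and Upk3b (r = 0.928), Igf2 with Wnt11 (r = 0.961) and Tfap2a (r = 0.930), Igfbp4 with Rp9 (r = 0.966) and Fis1 (r = 0.958), and Igfbp3 with Ddx51 (r = 0.875) and Ankib1 (r = 0.859). No 2 members shared a neighbour. Upk3b is among the 6 mesothelial markers listed, whose summed signal was 1414 in 4 weeks replicate 1, the heart with the highest Igfbp6, and 415 to 862 in the others. The part of mesothelial content in the level of Igfbp6 was not tested.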

How the data were processed

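RNA of 9 hearts was measured on Affymetrix chips 430A and 430B, 1 array of each per heart as matched by the titles. The deposited values are linear intensities computed by the authors with MAS5 (version not stated, per the submitters' processing notes). Arrays of a chip were brought to a common trimmed mean (2% at each end), and log2(signal + 32) was taken. Probe sets were named from the platform annotation of GEO: of 45137 without controls, 35041 have 1 gene symbol, 936 several and 9160 none, and only the first were used. The 60% with the highest mean log2 signal per chip were kept, 1 per gene. The 3 group means were fitted with limma 3.58.1 in R 4.3.3 (eBayes with a variance trend), with Benjamini-Hochberg adjustment over both chips. A companion fit used every probe set past the filter, and one without a filter served the probe sets below it. The procedure was tested on simulated data.

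Named are all 8 members with every probe set, the genes of the pathway list that passed in any comparison with the receptors, Akt1, and the 2 most correlated genes per member. Members and lists were chosen with earlier results of these data known. Groups and replicate numbers come from the sample titles; the description of 4 weeks replicate 3 carries the number 1. Replicate numbers did not pair the hearts: deviations of same-numbered hearts correlated with a mean r of -0.046 on chip 430A and -0.040 on chip 430B. The number of arrays limits the precision. Alternatives were the pseudocount, scaling, filter, probe set choice, variance trend, adjustment, groups fitted, a replicate block, the atrial score as covariate, averaging 4 weeks replicates 1 and 3, and leaving out each heart. Leaving out the 4 hearts with the highest atrial score was added after seeing the data.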

Additional observations from a re-analysis of the deposited data

How the results depend on the processing

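Both rises of Igfbp5 in probe set 1422313_a_at passed under every alternative run, including each fit without 1 heart. Between Akt on and 4 weeks, 1 member passed in place of 2 without a filter, without a variance trend, with only 2 groups fitted, with the replicate block, with 4 weeks replicates 1 and 3 averaged and without the 4 high-score hearts, and 0 to 3 passed when 1 heart was left out. Counting any probe set, it was 1 without a filter, without a trend, with 2 groups, with the block and without the 4 hearts, and 1 to 2 without 1 heart. Against before AAC, 1 member passed without the 4 hearts on either count, and 0 to 3, or 1 to 3 counting any probe set, without 1 heart. With the replicate block, Igfbp5 kept its calls (adjusted p = 0.0309 and 0.0253 in limma), Igf1 its rise over before AAC (0.0425), and Igfbp7 had 0.0672 against 4 weeks. Its numbers do not pair the hearts.

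Of the pathway list, 6 genes passed at 4 weeks with every probe set on its own and 0 without the 4 hearts (0 to 3 without 1 heart). Between Akt on and 4 weeks, 5 passed with the 40% brightest probe sets, 1 with the mean of all probe sets, with 2 groups, with the averaged replicates and without the 4 hearts (1 to 2 without 1 heart). Against before AAC, 13 passed with every probe set and 2 without the 4 hearts (4 to 7 without 1 heart). Of all genes, 656 passed at 4 weeks, against 431 without a filter, 1073 with every probe set, 279 with the block, 344 with the averaged replicates and 2 without the 4 hearts (37 to 930 without 1 heart). Between Akt on and 4 weeks 553 passed, against 213 with 2 groups, 318 averaged and 86 without the 4 hearts (201 to 489). Against before AAC 1930 passed (973 to 2126 without 1 heart), and 2658 was the highest count under any alternative. With every probe set on its own, a gene was counted where any of its probe sets passed, so genes with several had more tries.

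Of the differences that changed sign, only that of Ghr had passed. Igf1 at 4 weeks was -0.0059 with the mean of its probe sets and -0.073 to 0.43 without 1 heart. Igf1 1419519_at between Akt on and 4 weeks was -0.038 after quantile normalization, -0.0066 with the averaged replicates, -0.27 without the 4 hearts and -0.12 to 0.18 without 1 heart. Igf1 1434413_at at 4 weeks was 0.073 without the 4 hearts and -0.27 to 0.034 without 1 heart. Without 1 heart, Igf2 ran from -0.034 to 0.75 between Akt on and 4 weeks and from -0.53 to 0.26 against before AAC. Igfbp3 at 4 weeks was -0.32 with the 40% brightest probe sets and -0.083 averaged (-0.24 to 0.25 without 1 heart). Igfbp3 between Akt on and 4 weeks was 0.12 with the 40% brightest and 0.35 without the 4 hearts (-0.42 to 0.088), and against before AAC 0.53 without the 4 hearts (-0.39 to 0.11). Igfbp5 at 4 weeks was 0.062 with the mean of its probe sets. Igfbp6 at 4 weeks was 0.17 with the atrial score as covariate (-0.41 to 0.20 without 1 heart), and between Akt on and 4 weeks -0.53 to 0.076. Ghr against before AAC was 0.29 with the mean of its probe sets. The causes were not tested.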
